A study of Mus musculus with 11 samples.

Results

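The genes described here code for collagens, laminins and other proteins of the connective tissue matrix. The rule for membership used gene names: a probe set belonged if its single annotated symbol began with Col, a digit and a (the collagen chains), with Lama, Lamb or Lamc (the laminin chains), or with Fbn or Fbln (fibrillins and fibulins), or if it was Fn1, Sparc, Dcn, Lum, Postn, Lox, Tnc or Eln. This rule took 93 of the 24899 probe sets on both array types, and these stood for 60 genes. Fibrillar collagens made up 17 probe sets of 10 genes, basement membrane proteins 29 probe sets of 18 genes, and the remaining matrix proteins 47 probe sets of 32 genes. On the U74Av2 array there were 75 of these probe sets (51 genes), on the U74Bv2 array 18 (16 genes), and 7 genes lay on both.

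RNA came from the trigeminal ganglia, which hold the sensory neurons of the face, dissected from mice at embryonic day 13.5. The mice were wild-type, heterozygote or knockout for Brn3a, a POU-domain transcription factor of sensory neurons whose gene is Pou4f1, and the comparison asks which genes differ in the ganglion without it. Each of the 11 Affymetrix arrays held RNA of 1 genotype pooled from 10 to 12 ganglia. There were 2 arrays per genotype on U74Av2, and 2 knockout, 2 heterozygote and 1 wild-type array on U74Bv2. No treatment is labelled, and the sources used here do not give the strain or the structure of the knockout allele. Beyond the pools nothing says which animals each array came from, so p-values here cover only the spread from array to array, which may be technical, and the lone wild-type U74Bv2 array was assumed to vary like the others. Signals are deposited MAS5 values on a linear scale, and every difference below is on a log2 scale after adding 50 (U74Av2) or 49.8 (U74Bv2) to each signal, which makes the change of a low signal look smaller than it is.

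The genotype labels were checked with Pou4f1 itself, measured on U74Bv2. The wild-type array read 3313.1, the heterozygotes read 2196.0 and 3570.1, and the knockouts read 549.8 and 904.3. Against wild-type the knockout fell by 2.15 ± 0.34 (SE) on the log2 scale (limma with Benjamini-Hochberg adjustment, adjusted p = 0.0245). Where on the gene its probes lie, and so whether they touch the deleted part, is unknown here. Of the 17 sensory neuron markers on U74Av2, 14 lay above the filter on low signals, which 7453 of all 12422 non-control probe sets passed. Of 13 glial and of 13 endothelial markers 10 each passed, so passing does not set neurons apart.

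Collagens are built from 3 chains wound into a triple helix. The fibrillar types I, III and V form the cables of connective tissue, where type V starts and thins the fibrils, while the type IV network and the laminins make up basement membranes, the sheets that surround Schwann cells, blood vessels and the ganglion. In a peripheral ganglion, fibroblasts of the mesenchyme and the later capsule are the main source of fibrillar collagen, and glia and endothelium lay down most of the basement membrane. In such whole tissue, a lower or higher signal can come from the number of cells of a type or from the RNA in each cell, and these cannot be told apart.

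Without Brn3a, most matrix genes on U74Av2 had somewhat higher signals, and none passed the test. The tested set was 48 probe sets of 37 genes on U74Av2 and 6 of 5 genes on U74Bv2, since a probe set was tested only if its mean log2 value over all arrays of that type lay above the 40th percentile. Of the 48, 40 had a positive difference between knockout and wild-type (83.3%), against 52.6% of all 7453 probe sets tested. The median difference was 0.30, or 1.23-fold, against 0.02 over all probe sets tested, and the range was -0.62 to 0.80. The median was 0.18 without wild-type array 2. The mean that decided the filter includes the knockout arrays, so these shares describe the members that passed and do not stand for all 93.

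None of the 48 was called at an adjusted p under 0.05 by limma with Benjamini-Hochberg adjustment over all 7453, where 0.255% of probe sets were called. At an unadjusted p under 0.05 there were 2 (4.17%), Col3a1 and Col1a1, against 5.11% of all probe sets. That share was near the background of the array. The median standard error of the 48 differences was 0.27, close to their median size.

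The separation of the arrays themselves gives the same picture in signals. Both knockout arrays lay above both wild-type arrays for 18 of 48 probe sets (37.5%), against 16.1% of all probe sets tested, and below both for 1 (2.08%), Col14a1, against 12.4%. Both knockout arrays lay above all 4 other arrays for 11 probe sets (22.9%), against 8.53%. These 11 were Col1a1 (both probe sets), Col1a2, Col3a1, Col4a2, Col18a1 (with 2 probe sets), Lama4, Lamb1, Fbn2 and Postn. The highest of the 6 signals was in knockout array 1 for 18 of the 48 probe sets and in knockout array 2 for 15. The share over all probe sets was not computed for this count, so it is a description only.

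**Figure D1:**
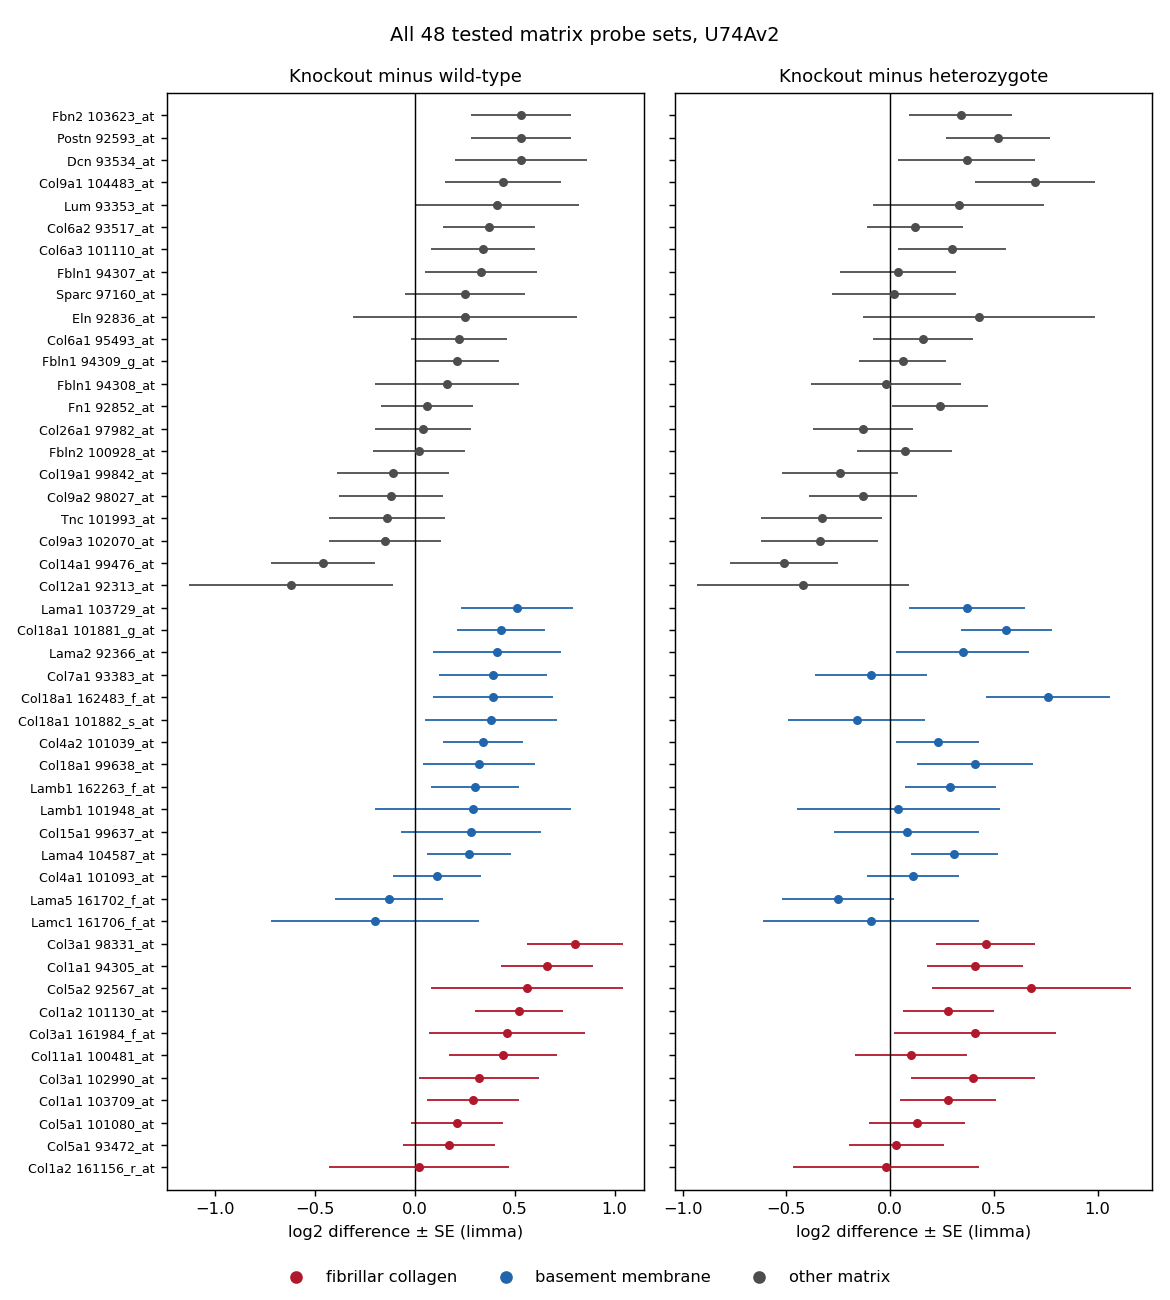
Log2 difference ± SE from limma for each of the 48 tested matrix probe sets on U74Av2, with knockout minus wild-type on the left and knockout minus heterozygote on the right, coloured by fibrillar collagen, basement membrane or other matrix. On the left 40 of 48 points lie above 0, from -0.62 for Col12a1 to 0.80 for Col3a1, and on the right 35 of 48.

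Fibrillar collagens showed the highest median of the 3 classes. All 11 tested probe sets of this class on U74Av2, from 6 genes, had a positive difference between knockout and wild-type, against 52.6% of all probe sets, with a median of 0.44 (1.36-fold) and a range of 0.02 to 0.80. None was called.

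Col3a1, the chain of type III collagen, which is abundant in soft embryonic connective tissue, had the largest difference of all matrix members on U74Av2. Its signal with the brightest of 3 tested probe sets was 732.8 and 824.6 in the wild-type arrays, 820.9 and 1204.3 in the heterozygote arrays, and 1372.1 and 1408.7 in the knockout arrays. Both knockout arrays were thus above every other array. Of the heterozygote arrays, 1 lay within the wild-type range and the other between wild-type and knockout. The difference from wild-type was 0.80 ± 0.24 (1.74-fold, 95% interval 0.22 to 1.38, limma adjusted p = 0.639). The other 2 Col3a1 probe sets gave 0.32 ± 0.30 and 0.46 ± 0.39, and for the latter the wild-type arrays alone ran from 131.1 to 317.4.

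Col1a1 codes for the α1 chain of type I collagen, of which each type I molecule carries a pair. Its signals were 1213.0 and 946.9 in wild-type, 1139.0 and 1453.2 in heterozygote, and 1679.7 and 1779.3 in knockout arrays. The knockout arrays again lay above all others, by 0.66 ± 0.23 over wild-type (1.59-fold, limma adjusted p = 0.765). The brighter Col1a1 probe set had 1861.5 and 1512.3, then 1513.8 and 1886.5, then 2243.2 and 1891.4 in the same order, and a difference of 0.29 ± 0.23.

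The partner chain Col1a2 was read by a pair of probe sets that did not show the same pattern. With the first, signals were 857.7 and 661.1 in wild-type, 957.0 and 850.2 in heterozygote, and 1062.5 and 1144.1 in knockout arrays, a difference of 0.52 ± 0.22 (limma adjusted p = 0.987) with no overlap. With the brighter probe set, whose name marks a relaxed design in which the usual rules for choosing probes were dropped, they were 4111.2 and 2279.6, 3917.4 and 2530.1, and 4591.9 and 2083.1. Here array number 1 stood far above number 2 in every genotype, and the genotypes differed by 0.02 ± 0.45. Its sign turned when either wild-type array 2 or knockout array 1 was left out, to -0.40 and -0.55.

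Type V collagen, which regulates fibril width, is built from Col5a1 and Col5a2. Col5a2 read 448.8 and 795.5 in wild-type, 340.8 and 862.9 in heterozygote, and 688.6 and 1195.4 in knockout arrays. The spread within each genotype was as wide as the step between them, and the difference was 0.56 ± 0.48. Within array number 1 it was 0.57, and within number 2 it was 0.56. Leaving out 1 array gave 0.18 (without wild-type array 1) to 0.94 (without wild-type array 2 or knockout array 1). Col5a1 had 1069.5 and 992.3, 1309.1 and 1004.3, and 1279.5 and 1066.1, so the groups overlapped, with differences of 0.17 ± 0.23 and 0.21 ± 0.23 on its 2 probe sets. Col11a1, a minor fibril chain best known from cartilage, had signals of 150.4 and 163.3 in wild-type and 276.4 and 190.6 in knockout arrays, a difference of 0.44 ± 0.27.

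**Figure D2:**
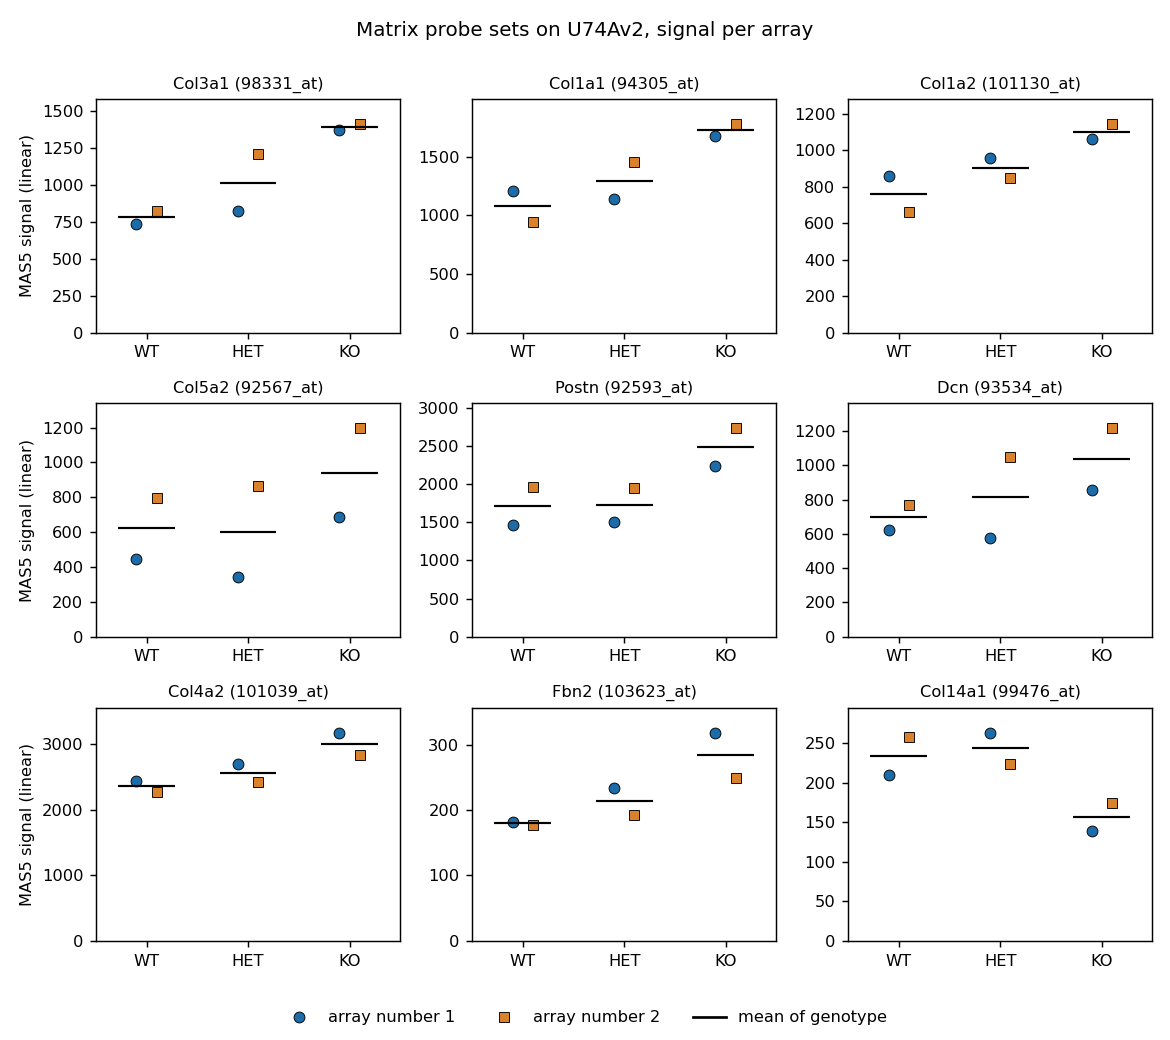
MAS5 signal (linear axis from 0) in each of the 6 U74Av2 arrays for 9 matrix probe sets, with circles for array number 1, squares for number 2 and bars for the mean of each genotype. For Col3a1 the knockout arrays are at 1372.1 and 1408.7 and the wild-type arrays at 732.8 and 824.6, while Col14a1 has its lowest signals, 139.1 and 174.4, in the knockout arrays.

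The RefSeq promoter table (assembly GRCm38.p6) held 49 start sites of 41 of the 60 genes. Col3a1 and Col1a2 are shown because they are fibrillar collagens with a probe set whose knockout arrays lay above all others (1 of 3 tested for Col3a1 and 1 of 2 for Col1a2) and their promoters were in the table. The 250 bases before the start site, both on the plus strand, are chr1:45311288-45311537 for Col3a1 and chr6:4505368-4505617 for Col1a2. Capitals mark the octamer ATGCAAAT, a motif known for POU-domain factors, in Col3a1, 148 bases before the start, and the CCAAT box in Col1a2, 109 bases before it.
Col3a1: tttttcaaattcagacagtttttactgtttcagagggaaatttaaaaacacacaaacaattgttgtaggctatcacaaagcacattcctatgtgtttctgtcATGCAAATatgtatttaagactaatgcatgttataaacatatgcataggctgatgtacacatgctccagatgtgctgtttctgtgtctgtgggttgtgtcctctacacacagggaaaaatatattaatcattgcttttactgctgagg
Col1a2: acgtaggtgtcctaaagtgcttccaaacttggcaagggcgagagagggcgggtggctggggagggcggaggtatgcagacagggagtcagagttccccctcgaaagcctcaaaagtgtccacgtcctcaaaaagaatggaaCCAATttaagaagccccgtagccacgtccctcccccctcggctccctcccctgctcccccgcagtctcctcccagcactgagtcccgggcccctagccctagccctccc

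Each motif was searched as exact letters on both strands, and none of the motifs contains another. ATGCAAAT was in 3 of the 49 matrix windows (6.12%) and in 1.6% of all 32851 windows of this length. These 3 lie at Col3a1 and Tnc only. The 49 windows come from 41 genes, and windows of the same gene are not separate. CCAAT was in 14 windows (28.6%) against 33.8%. GGGCGG, the GC box, was in 26 (53.1%) against 32.7%, and TATAAA was in 8 (16.3%) against 12.4%. These are counts of letters and do not mark binding sites, and binding by Brn3a was not tested. Tnc, the other gene with the octamer, differed by -0.14 ± 0.29 between knockout and wild-type on U74Av2.

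Basement membrane genes showed a median of 0.32 (1.25-fold) between knockout and wild-type on U74Av2, and 13 of their 15 tested probe sets, from 11 genes, were positive, against 52.6% of all probe sets. None was called, and none had an unadjusted p under 0.05, against 5.11% of all probe sets.

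Type IV collagen is the scaffold of every basement membrane, and its common form combines Col4a1 and Col4a2, which are neighbours in the genome and transcribed away from each other. Col4a2 read 2436.7 and 2277.7 in wild-type, 2694.2 and 2416.6 in heterozygote, and 3175.6 and 2835.3 in knockout arrays. Its knockout signals lay above all others, and the difference was 0.34 ± 0.20. Col4a1 had 3441.5 and 3808.1, 3176.7 and 4088.9, and 3706.4 and 4112.1, so its arrays overlapped, with a difference of 0.11 ± 0.22. The chains of specialised basement membranes such as those of the kidney, Col4a3, Col4a4, Col4a5 and Col4a6, had no tested probe set: their signals ran from 8.0 to 122.5 over all arrays.

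Col18a1, whose C-terminal fragment is endostatin, was read by 4 tested probe sets, which gave differences of 0.32 to 0.43. The brightest had 2128.1 and 1390.3 in wild-type, 1642.3 and 1597.3 in heterozygote, and 2559.5 and 1827.5 in knockout arrays. Wild-type and knockout overlapped on this probe set, and its difference ran from 0.02 without wild-type array 2 to 0.62 without wild-type array 1. A dimmer one had 319.1 and 315.3 in wild-type, 258.9 and 314.0 in heterozygote, and 471.5 and 416.9 in knockout arrays, with no overlap and a difference of 0.43 ± 0.22. The related Col15a1 differed by 0.28 ± 0.35, with knockout arrays of 500.8 and 227.6 on either side of both other genotypes. Col7a1, which forms the anchoring fibrils of skin, differed by 0.39 ± 0.27.

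Laminins are trimers of an α, a β and a γ chain. Among the α chains, Lama4, the chain of vessel and nerve basement membranes, had 1321.3 and 1496.6 in wild-type, 1287.4 and 1447.6 in heterozygote, and 1548.1 and 1870.4 in knockout arrays. The knockout arrays were the highest, and the difference of 0.27 ± 0.21 was little more than its error. Lama1, a chain of early embryonic basement membranes, differed by 0.51 ± 0.28, and Lama2, the chain of muscle and Schwann cell basement membranes, by 0.41 ± 0.32. Lama5 differed by -0.13 ± 0.27. Lama3, the skin chain, had no tested probe set.

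The β chain Lamb1 was read by a pair of probe sets with differences of 0.30 ± 0.22 and 0.29 ± 0.49. The first had 791.3 and 797.0 in wild-type, 793.1 and 813.1 in heterozygote, and 872.7 and 1121.5 in knockout arrays, so wild-type and heterozygote nearly coincided below the knockout. The γ chain Lamc1, shared by most laminins, had 1389.1 and 687.2, 1320.7 and 611.2, and 1266.4 and 559.3. Its difference was -0.20 ± 0.52, and array number 1 had about the same excess over number 2 in all 3 genotypes. Within array numbers 1 and 2 the Lamc1 difference was -0.13 and -0.27.

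Glial markers were also measured. Of the 10 tested on U74Av2, 7 were positive between knockout and wild-type, against 52.6% of all probe sets, with a median of 0.20. The summed signal of these Schwann and satellite glia markers on U74Av2, of 13 on the array, was 18753 and 20275 in wild-type, 21215 to 22867 in heterozygote, and 22849 to 25722 in knockout arrays. The brightest, Fabp7, a fatty acid binding protein of early glia, differed by 0.45 ± 0.23, Sox10 by 0.23 ± 0.38 and Erbb3 by 0.18 ± 0.27. Those below 0 were Gfra3, a GDNF family co-receptor, at -0.67 ± 0.22, Pmp22 at -0.31 ± 0.42 and Foxd3 at -0.05 ± 0.56, which were named after their values were seen, and no glial marker was called. On U74Bv2, the 2 tested glial markers summed to 14115 in wild-type, 13959 and 14058 in heterozygote, and 17207 and 15882 in knockout arrays. Their part in the matrix result was not tested.

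The remaining matrix proteins had a lower median, 0.22 (1.16-fold), and 16 of 22 tested probe sets on U74Av2, from 20 genes, were positive against 52.6% of all probe sets. None was called, and none had an unadjusted p under 0.05, against 5.11%.

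Postn, periostin, is a secreted protein of fibrous tissue and peripheral nerve that binds integrins and type I collagen. Its signals were 1465.7 and 1961.1 in wild-type, 1508.2 and 1943.4 in heterozygote, and 2241.2 and 2730.4 in knockout arrays. Wild-type and heterozygote arrays nearly coincided, the knockout arrays lay above them, and the difference from wild-type was 0.53 ± 0.25 (1.45-fold). Against heterozygote it was 0.52.

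Dcn and Lum code for decorin and lumican, small proteoglycans that coat collagen fibrils, and are neighbours in the genome. Dcn had 621.3 and 771.7 in wild-type, 575.0 and 1051.5 in heterozygote, and 857.8 and 1216.2 in knockout arrays, a difference of 0.53 ± 0.33. Lum had 455.3 and 811.9, 513.8 and 816.1, and 586.9 and 1156.4, a difference of 0.41 ± 0.41. Knockout lay above wild-type without overlap for Dcn but not for Lum, and for both the number 2 array was the higher in every genotype.

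The 3 chains of type VI collagen, which forms beaded filaments around cells, gave similar values: 0.22 ± 0.24 for Col6a1, 0.37 ± 0.23 for Col6a2 and 0.34 ± 0.26 for Col6a3. Col6a1 had 1282.4 and 919.1 in wild-type, 1130.6 and 1135.1 in heterozygote, and 1378.4 and 1179.6 in knockout arrays, with overlap. Without wild-type array 2 its difference was -0.01.

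Type IX collagen decorates cartilage-type fibrils, and its chains did not go one way. Col9a1 differed by 0.44 ± 0.29, with 498.6 and 402.1 in wild-type, 338.4 and 400.6 in heterozygote and 804.7 and 486.8 in knockout arrays. Col9a2 differed by -0.12 ± 0.26. Col9a3 had 562.9 and 486.4, 596.4 and 608.3, and 608.3 and 353.7, a difference of -0.15 ± 0.28 that became 0.20 without knockout array 2. For Col9a1 the knockout arrays were 0.67 apart on the log2 scale, about as far as knockout lay from heterozygote (0.70). Col19a1, a neighbour of Col9a1, differed by -0.11 ± 0.28.

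Among the fibulins, glycoproteins of elastic fibres and basement membranes, Fbln1 was positive on 3 tested probe sets with 0.16 to 0.33, and Fbln2 lay at 0.02 ± 0.23. The brightest Fbln1 probe set had 1935.3 and 1606.8 in wild-type, 2115.4 and 1825.0 in heterozygote, and 2165.2 and 1940.7 in knockout arrays. Fbln2 had 1576.0 and 1393.6, 1654.2 and 1225.4, and 1578.5 and 1425.5, which is the same level in every genotype within the spread. Sparc, a collagen-binding protein also called osteonectin, had 796.1 and 1454.5, 1180.5 and 1375.7, and 1221.3 and 1370.4. All of its knockout and heterozygote signals lay between the wild-type arrays, and the difference of 0.25 ± 0.30 turned to -0.16 without wild-type array 1.

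Further matrix genes were not called either. Fn1, fibronectin, differed by 0.06 ± 0.23, with 738.0 and 579.0 in wild-type and 675.1 and 697.5 in knockout arrays. Tnc, tenascin-C, an adhesion-modulating glycoprotein, differed by -0.14 ± 0.29, and Eln, elastin, by 0.25 ± 0.56. Col26a1 differed by 0.04 ± 0.24, with groups that overlapped. The 95% interval for Fn1 was -0.49 to 0.62 and that for Eln -1.09 to 1.58, so sizeable differences in either direction remain possible in this fit. The Eln interval counts the step between array numbers as spread. Within array numbers 1 and 2 the Eln difference was 0.23 and 0.26.

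Fibrillin 2 and collagen XIV had the largest differences among the U74Bv2 members, in opposite directions, and both were also tested on U74Av2. Fbn2 codes for a fibrillin of embryonic microfibrils. On U74Av2 it had 182.2 and 176.8 in wild-type, 233.5 and 192.8 in heterozygote, and 318.3 and 249.3 in knockout arrays, a difference of 0.53 ± 0.25 with the knockout arrays above all others. On U74Bv2 the first of 2 probe sets had 436.6 in wild-type, 614.9 and 758.2 in heterozygote, and 915.2 and 1223.1 in knockout arrays. The order was the same, with wild-type lowest and knockout highest, and the difference was 1.19 ± 0.25 (2.28-fold, 95% interval 0.61 to 1.77, limma adjusted p = 0.0775). This first probe set is of relaxed design, and the name of the second marks another design that is not standard. The second had 545.9, then 460.4 and 705.1, then 784.0 and 919.8, and a difference of 0.59 ± 0.28 (limma adjusted p = 0.498). Over 12 settings the difference of the first ranged from 0.988 to 1.388. With the filter at the 60th percentile its limma adjusted p was 0.0475. It was not called with either other pseudocount, without the filter, with quantile normalization or without the intensity trend. Leaving out a heterozygote array left its difference at 1.19 and changed only the estimate of the spread. Without knockout array 1 the difference was 1.39, from 1 knockout array against 1 wild-type array.

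Collagen XIV, made by Col14a1, sits on the surface of fibrils in tendon and skin. On U74Av2 it had 210.2 and 257.2 in wild-type, 263.2 and 223.1 in heterozygote, and 139.1 and 174.4 in knockout arrays. It was the 1 member of 48 with both knockout arrays below all others (2.08%), against 7.66% of all probe sets tested, and the difference was -0.46 ± 0.26. The separate probe set on U74Bv2 had 459.5 in wild-type, 435.6 and 329.3 in heterozygote, and 278.4 and 131.9 in knockout arrays. Its difference was -1.06 ± 0.39 (limma adjusted p = 0.342). Without knockout array 1 the difference was -1.49, and without knockout array 2 it was -0.63, each from 1 knockout array against 1 wild-type array. The knockout was thus lower on both probe sets, on arrays whose pools may or may not have been the same.

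Col12a1, a close relative of Col14a1, had the lowest difference on U74Av2, -0.62 ± 0.51, which rested on 1 array. Its signals were 157.1 and 196.5 in wild-type, 151.6 and 143.8 in heterozygote, and 209.2 and 33.7 in knockout arrays. The first knockout array was the highest of the 6 and the other the lowest, and without knockout array 2 the difference was 0.20.

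**Figure D3:**
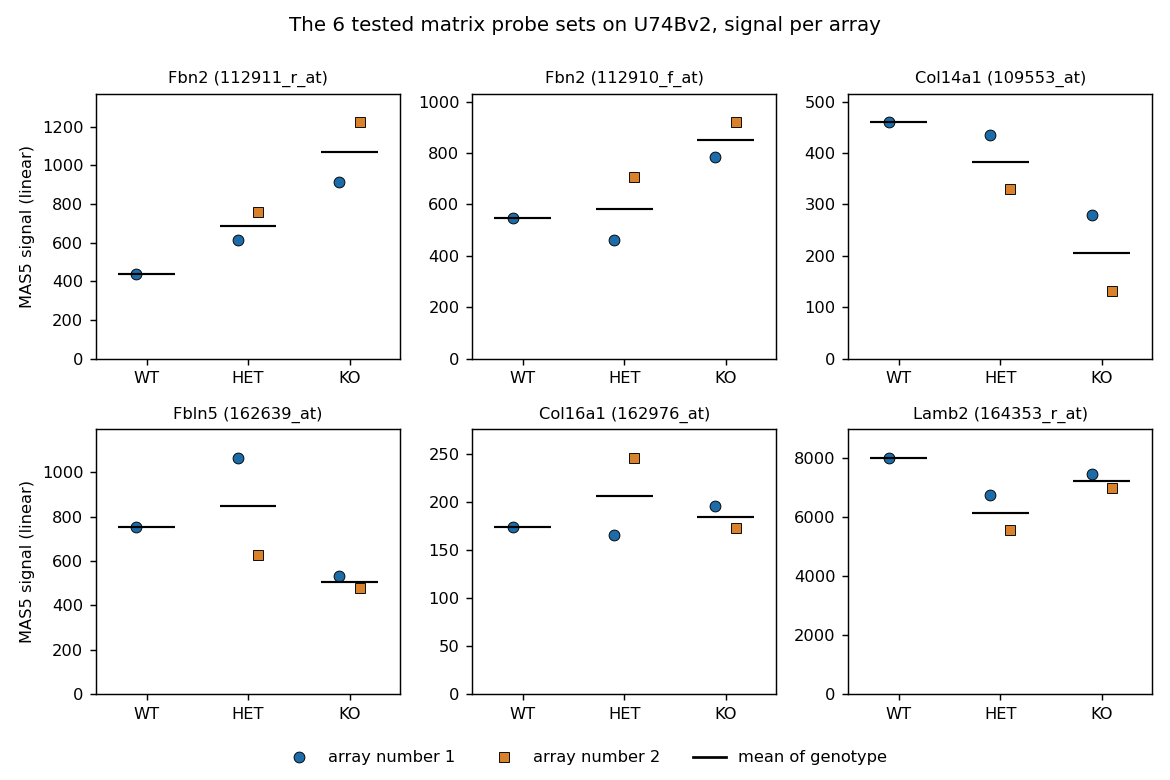
MAS5 signal (linear axis from 0) in each of the 5 U74Bv2 arrays for the 6 tested matrix probe sets, with circles for array number 1, squares for number 2 and bars for the mean of each genotype (wild-type is 1 array). Both Fbn2 probe sets are highest in the knockout arrays, the first at 915.2 and 1223.1 against 436.6 in wild-type, while Col14a1 and Fbln5 are lowest there.

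The U74Bv2 members as a set showed no common direction. Of 6 tested probe sets, 3 had a positive difference between knockout and wild-type, against 53.0% of all 7446 probe sets tested, and the median was -0.04. None was called, against 1.4% of all probe sets, and 2 had an unadjusted p under 0.05 (Fbn2 and Col14a1), against 11.2%. Against heterozygote none was called, against 1.71%, and 4 had an unadjusted p under 0.05 (the Fbn2 pair, Col14a1 and Fbln5), against 9.67%.

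Fbln5, a fibulin needed for elastic fibre assembly, had 754.6 in wild-type, 1065.9 and 627.5 in heterozygote, and 534.0 and 476.4 in knockout arrays. The knockout arrays were the lowest, and the differences were -0.54 ± 0.31 from wild-type and -0.65 from heterozygote (limma adjusted p = 0.619 and 0.408). Lamb2, the laminin β chain of synaptic and vascular basement membranes, had 8001.4, then 6743.8 and 5537.3, then 7454.3 and 6966.4, a difference of -0.15 ± 0.24. The name of this probe set marks a relaxed design. The standard Lamb2 probe set on U74Av2 read only 86.3 to 162.2 and was not tested. Col16a1 had 174.3, then 165.6 and 246.1, then 195.9 and 172.4, and lay at 0.06 ± 0.37.

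Genes with several tested probe sets on an array type can be compared within the gene. In 8 of 8 such genes the probe sets had the same sign in knockout minus wild-type: Col18a1, Col1a1, Col1a2, Col3a1, Col5a1, Fbln1 and Lamb1 on U74Av2, and Fbn2 on U74Bv2. All of them were positive, and the probe sets of a gene may share transcript and hybridisation, so they are not replicates. Since 40 of the 48 tested members on U74Av2 were positive, a shared sign was likely in advance and is no test. The width of agreement varied, from 0.29 and 0.30 for Lamb1 to 0.02 and 0.52 for Col1a2.

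Array number, which the labels do not tie to a batch, shaped some of these genes more than genotype did. On U74Av2, number 2 exceeded number 1 by more than 0.3 on the log2 scale in every genotype for Col5a2, Lum and 1 Lamb1 probe set, or 6.25% of the 48, against 12.7% of all probe sets tested. It was lower by as much in every genotype for Lamc1, Eln and the brighter Col1a2 probe set, again 6.25%, against 9.7%. Eln had 444.5 and 161.6 in wild-type, 342.5 and 156.0 in heterozygote, and 530.7 and 203.5 in knockout arrays, so the genotypes are visible only within a number. The Lamb1 probe set had 241.7 and 687.9, 352.9 and 707.6, and 441.6 and 608.6.

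**Figure D4:**
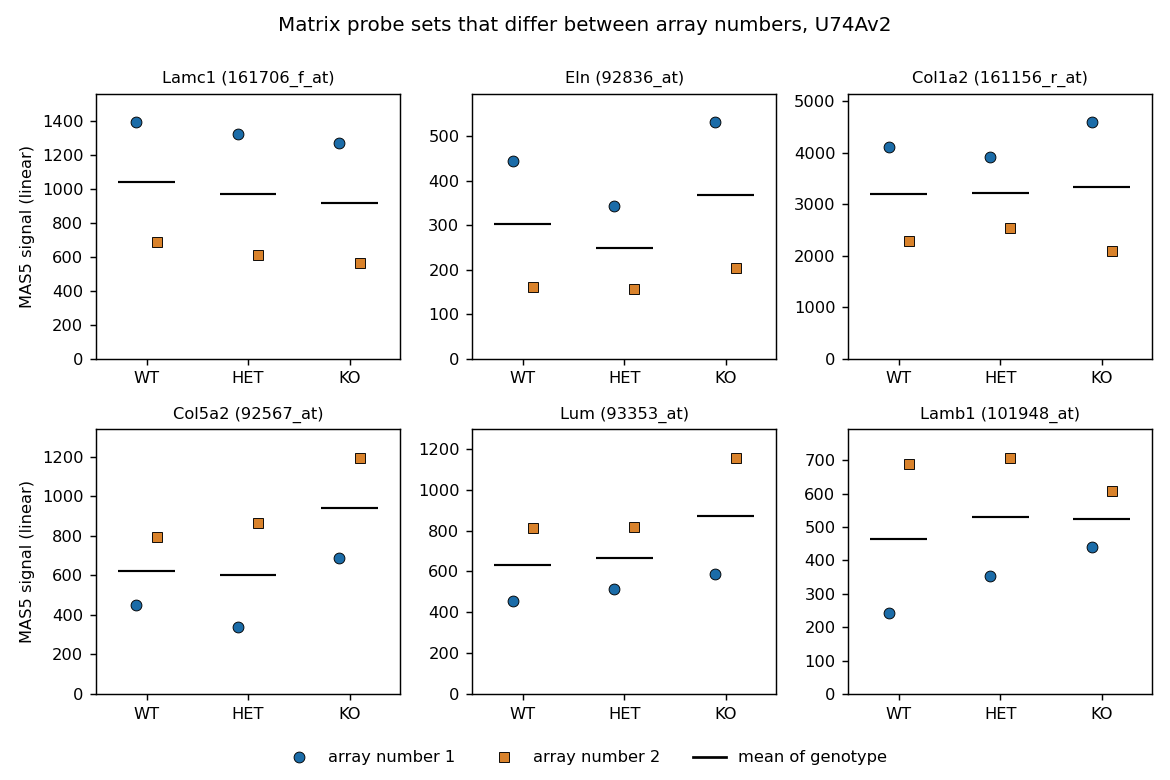
MAS5 signal (linear axis from 0) in each U74Av2 array for the 6 matrix probe sets in which array number 2 differed from number 1 by over 0.3 on the log2 scale in the same direction in all genotypes, with circles for number 1, squares for number 2 and bars for genotype means. Eln is at 444.5, 342.5 and 530.7 with number 1 and at 161.6, 156.0 and 203.5 with number 2 (wild-type, heterozygote, knockout).

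Over all 48 probe sets, the median difference between knockout and wild-type was nearly the same within each array number, but not in every class. Between the number 1 arrays, 40 of 48 probe sets were positive with a median of 0.27, and between the number 2 arrays 37 of 48 with a median of 0.26. The fibrillar collagens had 11 of 11 and 10 of 11 positive, with medians of 0.43 and 0.21. For the basement membrane genes the medians were 0.38 and 0.31, and for the other matrix genes 0.17 and 0.25. Col3a1 was 0.86 and 0.74, Col1a1 0.45 and 0.88, Postn 0.60 and 0.47, and Col14a1 -0.46 and -0.45.

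**Figure D5:**
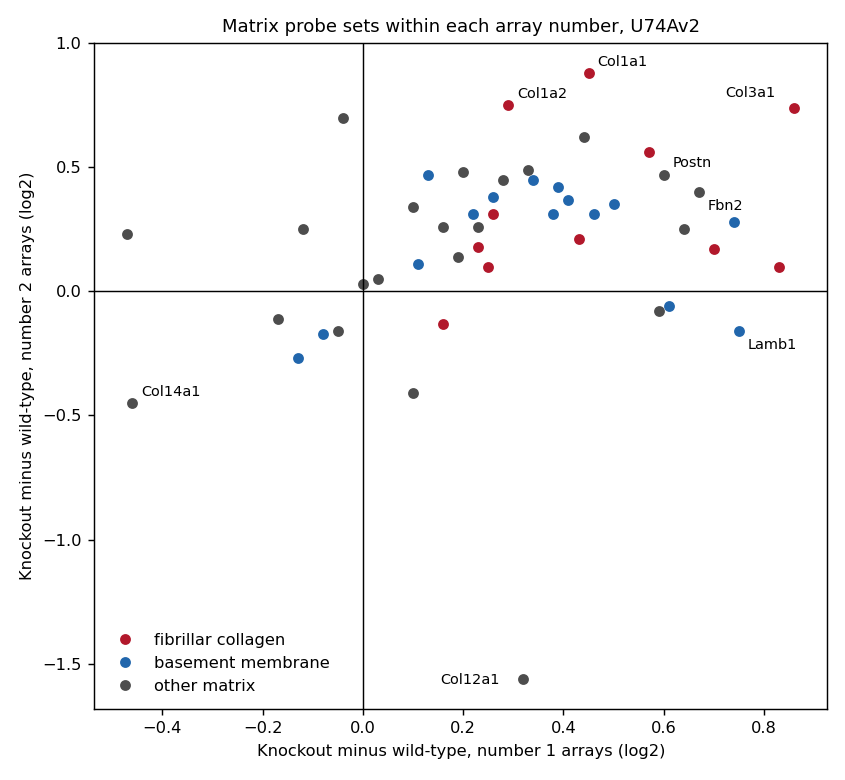
Knockout minus wild-type difference (log2) of each of the 48 tested matrix probe sets on U74Av2 between the number 1 arrays (horizontal axis) and between the number 2 arrays (vertical axis), coloured by class. Most points lie in the upper right, with Col3a1 at 0.86 and 0.74, while Col12a1 lies at 0.32 and -1.56 and Col14a1 at -0.46 and -0.45.

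The comparison of knockout with heterozygote uses the same knockout arrays and is therefore not a separate replication. On U74Av2, 35 of 48 probe sets were positive (72.9%), against 53.1% of all probe sets, with a median of 0.15 against 0.02. The median was 0.26 without knockout array 2, and it was 0.27 between the number 1 arrays and 0.10 between the number 2 arrays. None was called, against 0.188%, and 3 had an unadjusted p under 0.05, 2 of Col18a1 and 1 of Col9a1, against 5.25%. Fibrillar collagens had a median of 0.28 (10 of 11 positive), basement membrane genes 0.23 (11 of 15) and other matrix genes 0.07 (14 of 22). For Col3a1 the difference was 0.46, for Col1a1 0.41, for Col5a2 0.68, for Fbn2 0.34 and for Col14a1 -0.51. The knockout arrays lay above both heterozygote arrays for 17 probe sets (35.4%), against 14.6%, and below both for 4 (8.33%: Lama5, Col14a1, Col19a1 and Tnc), against 13.2%.

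Between heterozygote and wild-type on U74Av2 the median was 0.08 against -0.01 over all probe sets tested, and 35 of 48 were positive (72.9%) against 49.0%. The median was 0.16 without wild-type array 1, and it was 0.01 between the number 1 arrays and 0.13 between the number 2 arrays. Here none was called on either array type, where 0.0% of all probe sets were. On U74Av2 none had an unadjusted p under 0.05, against 0.698%. On U74Bv2 the Fbn2 probe set described first had an unadjusted p under 0.05, with a difference of 0.59 (limma adjusted p = 1.0), against 3.8% of all probe sets. Heterozygote arrays lay above both wild-type arrays for 5 of 48 probe sets on U74Av2 (10.4%), against 10.8%, and below for 4 (8.33%), against 7.96%.

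The 39 probe sets that were not tested had signals between 3.5 and 340.0, with a median of 62.65. They left 20 genes with no tested probe set. These included the cartilage collagens Col2a1, Col10a1 and Col11a2, the transmembrane collagens Col13a1, Col17a1 and Col23a1, the network collagens Col8a1 and Col8a2, the laminin chain Lamb3, and Lox, the enzyme that crosslinks collagen and elastin. Col2a1, the main collagen of cartilage, ran from 61.7 to 112.1 over the arrays, and Lox from 9.2 to 109.9. The highest single signal of the 39 was Col23a1 in knockout array 2 on U74Bv2, at 340.0, where the other arrays had 76.8 to 159.9. The untested U74Bv2 probe set of Col5a2 had 197.8 in wild-type and 144.7 and 140.8 in knockout arrays.

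Genes that act on or with the matrix were taken from lists chosen with earlier results of these data known. Each listed gene was counted once per array type, with its brightest tested probe set. Beside the counts of positive genes in these and the following lists, 52.6% of all U74Av2 probe sets tested were positive between knockout and wild-type. Between knockout and heterozygote that share was 53.1%. Of 12 tested genes of collagen processing and crosslinking on U74Av2, none was called, 7 were positive and the median was 0.08. Serpinh1, the collagen chaperone of the endoplasmic reticulum, had 1349.4 and 2283.7 in wild-type, 2266.7 and 2776.9 in heterozygote, and 2291.7 and 2720.1 in knockout arrays, a difference of 0.50 ± 0.29. Ppib, a prolyl isomerase of the same machinery, differed by 0.58 ± 0.21 (limma adjusted p = 0.781), and P4hb, the β subunit of prolyl hydroxylase, by -0.15 ± 0.61. On U74Bv2 none of 4 was called, and the median was 0.23.

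Basement membrane partners lay on the positive side and were too few for a share to be read. On U74Av2 all 3 were positive: Hspg2, perlecan, by 0.67 ± 0.30, Nid2, which links laminin to type IV collagen, by 0.62 ± 0.44, and Agrn, agrin, by 0.08 ± 0.20. On U74Bv2 Frem2 and Fras1, which work together at epithelial basement membranes, differed by 0.85 ± 0.28 and 0.34 ± 0.31 (limma adjusted p = 0.279 and 0.794). None of the 5 was called.

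Cell surface receptors and proteases of the matrix had medians below 0 against wild-type on U74Av2 and above 0 against heterozygote, at 0.11 for receptors (8 of 14 positive) and 0.05 for proteases and inhibitors (6 of 11). Against wild-type, 5 of the 14 tested receptors were positive, with a median of -0.11, and none was called. The integrin β1 chain Itgb1 differed by -0.25 ± 0.29, dystroglycan (Dag1) by 0.16 ± 0.28, and the collagen receptor Ddr1 by -0.17 ± 0.21. Of 11 proteases and inhibitors 4 were positive, with a median of -0.12 and none called. Mmp14, a membrane-bound collagenase, differed by 0.25 ± 0.22, the sheddase Adam10 by -0.61 ± 0.45, and the inhibitor Timp3 by -0.05 ± 0.25. The 15 tested proteoglycans and glycoproteins had 9 positive, a median of 0.22 and none called, with Mfap2, a microfibril protein, at 0.26 ± 0.23, Bgn, biglycan, at -0.14 ± 0.21, and Matn2 at 0.28 ± 0.53. On U74Bv2 none of 5 receptors, 1 protease and 2 proteoglycans or glycoproteins was called, and their medians were -0.01, 0.21 and 0.32.

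Markers of other cell types in and around the ganglion differed in direction. The 11 tested mesenchyme and fibroblast markers on U74Av2, of 27 on the array, had 7 positive, a median of 0.08 and none called. Their summed signal was 13888 and 20376 in wild-type, 16018 and 19875 in heterozygote, and 14536 and 19737 in knockout arrays, so the genotypes overlapped. The brightest of the list were Igf2 at 0.08 ± 0.31, Dlk1 at -0.27 ± 0.21 and Igf1 at 0.08 ± 0.57. On U74Bv2 a different Igf1 probe set was called: it had 3967.5 in wild-type, 4020.2 and 3459.1 in heterozygote, and 1504.1 and 1464.7 in knockout arrays, and fell by 1.39 ± 0.20 (limma adjusted p = 0.0185).

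Endothelial markers summed to 3395 and 3626 in wild-type and 3136 and 3419 in knockout arrays on U74Av2, with 3 of 10 positive and a median of -0.13. Skeletal muscle markers summed to 3255 and 4029 in wild-type and 3423 and 4463 in knockout arrays, with 5 of 12 positive and a median of -0.03. Blood and macrophage markers summed to 39167 and 47146 in wild-type, 46052 and 68797 in heterozygote, and 49370 and 60873 in knockout arrays, with 6 of 11 positive and a median of 0.13. None of these 3 lists had a called gene. Of the 8 cartilage and bone markers on U74Av2 none lay above the filter, and the 2 tested on U74Bv2 had a median of 0.25 with none called. Among sensory neuron markers on U74Av2, 7 of 14 were positive, with a median of -0.02, and Avil, the actin-binding protein advillin, was called at -2.72 ± 0.26 (limma adjusted p = 0.0125). On U74Bv2, where the list includes Pou4f1 itself, 1 of 7 was positive against wild-type, with a median of -0.22. All probe sets tested there were positive in 53.0%. Against heterozygote the median of these 7 was -0.32. The summed signals of glia and of blood were thus higher in both knockout arrays than in both wild-type arrays. Those of mesenchyme, endothelium and muscle were not. A sum leans on its brightest genes. Of the 4 brightest in blood, Hbb-y differed by 0.58 ± 0.35 and Hba-a1 by 0.38 ± 0.18. Hba-x differed by -0.25 ± 0.36 and C1qc by -0.47 ± 0.29. In glia, Fabp7 had 9735.9 and 11460.1 in wild-type and 16258.1 and 12753.4 in knockout arrays. The part of these lists in the matrix result was not tested.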

How the data were processed

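The deposited values are microarray intensities, 1 linear signal per probe set and array, computed by MAS5 according to the submitters' processing notes. The sources used here do not give its version or scaling target. The 2% trimmed means of the deposited signals lay between 497.61 and 500.29, so no scaling was added. A pseudocount of 0.1 of the mean trimmed mean was added before log2. Symbols came from the platform annotation, with 10855 of 12488 probe sets on U74Av2 and 10581 of 12411 on U74Bv2 carrying 1 symbol. Each array type was fitted with limma 3.58.1 in R 4.3.3 (lmFit, eBayes with trend, genotype as the factor), controls and probe sets under the 40th percentile of mean log2 left out, two-sided, with Benjamini-Hochberg adjustment per comparison and a threshold of 0.05. The fit was tested on simulated data. The number of arrays limits the precision, and the array types were not fitted together.

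The members and lists were chosen with earlier results of these data known. Values were printed for called members, for the 5 brightest genes per class and array type, for the 4 largest differences in each direction per array type, for further members chosen after their values were seen, and for up to 3 of the brightest genes of each list or those called. Alternatives covered the pseudocount, the filter, quantile normalization, a replicate block, leaving out each array, 1 array number, 1 probe set per gene, and probe sets of standard design only. The last 3 were chosen after seeing the data. Promoters were read from RefSeq (GRCm38.p6) with Python 3.11.15.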

Additional observations from a re-analysis of the deposited data

How the results depend on the processing

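Across the alternatives, the medians moved by less than the spread between replicates, and the counts of called members by less than 1.5 times, in 161 checks. They moved by more in 13, and the cause was not tested. On U74Av2 no member was called under any alternative. The lowest adjusted p there was 0.639 (limma, knockout minus wild-type, main fit), so those counts had little room to move. Leaving out a heterozygote array, or adding the block to the balanced U74Av2 design, hardly enters knockout minus wild-type, and its median stayed at 0.30. The 161 includes such checks and is not a measure of stability. The array numbers were also fitted as a replicate block: the labels do not say what a number marks, deviations of same-numbered U74Av2 arrays correlated at 0.53 to 0.62 and those of U74Bv2 at 0.10, and 6 of 6 and 2 of 5 arrays correlated best with their own number. With the replicate block 1 U74Bv2 member was called in knockout minus wild-type, Fbn2 (limma adjusted p = 0.0353), as with the filter at the 60th percentile (1, adjusted p = 0.0475), and leaving out single arrays gave 0 to 2. The U74Bv2 medians were 0.22 (knockout minus wild-type) and 0.39 (knockout minus heterozygote) with the filter at the 60th percentile. They were -0.54 and -0.65 with probe sets of standard design only. For knockout minus heterozygote the median was -0.11 with the brightest probe set per gene. The U74Av2 median of knockout minus heterozygote was 0.27 in array number 1 only. Leaving out single arrays moved the U74Av2 medians over 0.18 to 0.34 (knockout minus wild-type), 0.13 to 0.26 (knockout minus heterozygote) and 0.07 to 0.16 (heterozygote minus wild-type). Col16a1 turned sign with quantile normalization (-0.01), the replicate block (-0.02), and left-out arrays (-0.01 to 0.13).

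Other members whose knockout minus wild-type sign turned when an array was left out ranged from -1.43 to 0.20 for Col12a1, -0.51 to 0.20 for Col9a3, -0.76 to 0.35 for Lamc1, -0.55 to 0.58 for Col1a2 (relaxed design), -0.01 to 0.45 for Col6a1, -0.07 to 0.10 for Fbln2, -0.16 to 0.67 for Sparc, -0.05 to 0.97 for a Col3a1 probe set, -0.05 to 0.87 for Lum, -0.10 to 0.23 for Fn1, -0.31 to 0.02 for Tnc, -0.39 to 0.15 for Col9a2, -0.25 to 0.04 for Col19a1, -0.37 to 0.86 for Eln, -0.37 to 0.96 for Lamb1 (array number differing), -0.22 to 0.77 for Col15a1 and -0.12 to 0.20 for Col26a1. For Lamc1, Eln and the Col1a2 and Lamb1 probe sets listed here, leaving out 1 array also unbalances array number between the genotypes. Within array numbers 1 and 2, Eln was 0.23 and 0.26 and Lamc1 -0.13 and -0.27. The Col1a2 probe set was 0.16 and -0.13, and the Lamb1 probe set 0.75 and -0.16. The number of arrays per genotype limits what can be called, and a low signal cannot be told from absence.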

Other observations

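Vcan, versican, a large proteoglycan of embryonic matrix that borders paths of nerve and neural crest growth, lies outside the naming rule and was chosen after its values were seen. Its signal on U74Av2 was 370.3 and 477.6 in wild-type, 540.8 and 525.4 in heterozygote, and 1159.0 and 1044.0 in knockout arrays. All 3 genotypes were apart, and the difference between knockout and wild-type was 1.29 ± 0.22 (limma adjusted p = 0.139), larger than that of any tested collagen or laminin on that array type. Thbs3, a thrombospondin, also chosen after its values were seen, had 556.8 and 565.8, 623.0 and 496.7, and 421.0 and 369.4, a difference of -0.46 ± 0.22 with the knockout arrays lowest.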
